A study of Mus musculus with 6 samples.

Results

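Transcript levels of the genes of glycolysis, the pentose phosphate and glycogen branches and the hypoxia response were compared in invariant natural killer T (iNKT) cells of mouse liver. The genes were a list of 38, ordered by pathway step and found in the table by their GENCODE M21 symbols. Of these, 37 were among the 12942 genes of the table, and all 37 passed the filter on low values. Vegfa was not analysed here.

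The cKOHet group was Tbx21Cre Ets1F/F Tbx21F/+ Rosa26-YFP+, and the control group was Tbx21Cre Rosa26-YFP+. Both groups thus carried a Cre tied to Tbx21, the gene of the transcription factor T-bet, and a YFP reporter at Rosa26 that stays on once Cre has acted. They differed in a pair of floxed Ets1 alleles and in 1 floxed Tbx21 allele, and the contributions of the 2 loci cannot be told apart. The cells were primary liver cells positive for CD1d tetramer and YFP, with 3 libraries per group that carry the replicate numbers 1, 2 and 4. Sample titles call them iNKT1, or iNKT for control replicate 4 and cKOHet replicate 1. Thymic cells and Ets1F/F mice without the floxed Tbx21 allele, which the design text mentions, were not analysed here. The column code of replicate 1 joins 2 names in each group, and the labels do not say whether mice or libraries were pooled. The replicates are described as independent, with no mice named, and p-values therefore measure how far these libraries spread.

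Glycolysis splits glucose into pyruvate, and its pace is set mainly by glucose transport and by hexokinase, phosphofructokinase and pyruvate kinase. Pyruvate is then reduced to lactate and exported, or enters the mitochondria through pyruvate dehydrogenase, which pyruvate dehydrogenase kinases switch off. Hypoxia-inducible factor 1α, the product of Hif1a, is hydroxylated by the Egln enzymes and marked for destruction by the Vhl protein when oxygen is present, and otherwise induces many glycolytic genes by binding a short motif called the hypoxia response element. Resting iNKT1 cells are quiescent tissue-resident lymphocytes with low demand for glycolysis, whereas T cell activation raises it.

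Per library, the summed normalised read counts ranged from 4996523 to 5219483, and the 37 genes made up 0.544% to 0.611% of a cKOHet library and 0.723% to 0.758% of a control library. Ets1, the targeted gene, was at 462, 596 and 441 in cKOHet libraries and at 7391, 6255 and 7787 in control libraries (log2 fold change -3.84, SE 0.14, limma adjusted p = 1.06e-10). Tbx21 was at 2174, 2316 and 2127 in cKOHet libraries and at 2434, 2504 and 2765 in control libraries, with no call (log2 fold change -0.22, adjusted p = 0.196), and values per whole gene do not show which exons were deleted. Xist was high in replicates 1 and 2 of both groups (4337 to 5657) and near 0 in replicate 4 of both (0.0816 in the cKOHet library and 1.17 in the control library). Among markers of other cells, the 10 hepatocyte genes summed to 271 to 657 in cKOHet libraries and 232 to 433 in control libraries, with Alb at 295, 219 and 519 in cKOHet libraries and at 237, 303 and 141 in control libraries. The 10 macrophage and Kupffer cell genes summed to 152 to 211 in cKOHet libraries and 37.7 to 100.2 in control libraries, with no single value above 42.3, and 3 of the 6 tested (Clec4f, Csf1r and Cd5l) were higher in cKOHet libraries. Cd5l reached the filter of 10 in cKOHet libraries alone. For neutrophils, 0 of 8 markers were in the table, and for B cells 1 of 8, Ighm, which was lower in cKOHet libraries (765 to 1048, against 1889 to 2063 in control libraries). The single erythroid marker in the table lay between 7.40 and 33.2 in cKOHet libraries and at most at 0.0566 in control libraries. Platelet genes (2 of 6 in the table) summed to 5.26 to 17.7 in cKOHet libraries and 9.48 to 13.9 in control libraries, and the 1 endothelial gene lay at 1.01 to 12.4 in cKOHet libraries and 0.0379 to 3.67 in control libraries. The part of these cells in the results below was not tested. The 11 iNKT1 identity genes, all in the table, summed to 47000 to 52566 in cKOHet libraries and 52961 to 58723 in control libraries. Of these, 1 was called higher, Zbtb16 (log2 fold change 0.53), and 3 lower, Il2rb (-0.72), Cxcr3 (-0.51) and Cd44 (-0.44). Of all genes tested, 11.5% were called higher and 9.97% lower. Of 14 markers of dividing cells, Mcm4 alone was called, lower in cKOHet libraries, and the list summed to 9017 to 10076 in cKOHet libraries and 9064 to 12748 in control libraries. Levels here are normalised read counts per gene, in bulk RNA, where fewer cells of a type and less RNA per cell cannot be told apart.

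The glucose transporters Slc2a1 and Slc2a3, Pfkfb3 and Pfkfb4, enolase 1, the pyruvate dehydrogenase kinase Pdk1 and Hif1a fell in cKOHet cells. Most of the pentose phosphate, glycogen and hypoxia genes among the 37 were not called. Of the 37 genes, 13 were called lower (35.1%) and 1 higher at an adjusted p under 0.05, against 9.97% of the 11226 genes tested called lower, 11.5% called higher and 21.4% called in either direction. The count called lower was 8 of the 37 when replicate 4 of both groups, with Xist near 0, was left out. In that fit 775 of all genes tested were called lower, against 1119 with all libraries. In 18 of the 37 every cKOHet library lay below every control library, against 16.7% of all genes tested, and in 3 every cKOHet library lay above, against 19.1%. The median log2 fold change was -0.29 over the 37 genes and 0.01 over all genes tested. By block, 11 of 23 glycolysis and lactate genes were lower and 1 higher (median -0.40), 1 of 7 pentose phosphate and glycogen genes was lower (median 0.04), and 1 of 7 tested hypoxia genes was lower (median 0.17). The genes were chosen with earlier results of these data known. These counts and medians therefore describe the list and are not a test of it.

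**Figure D1:**
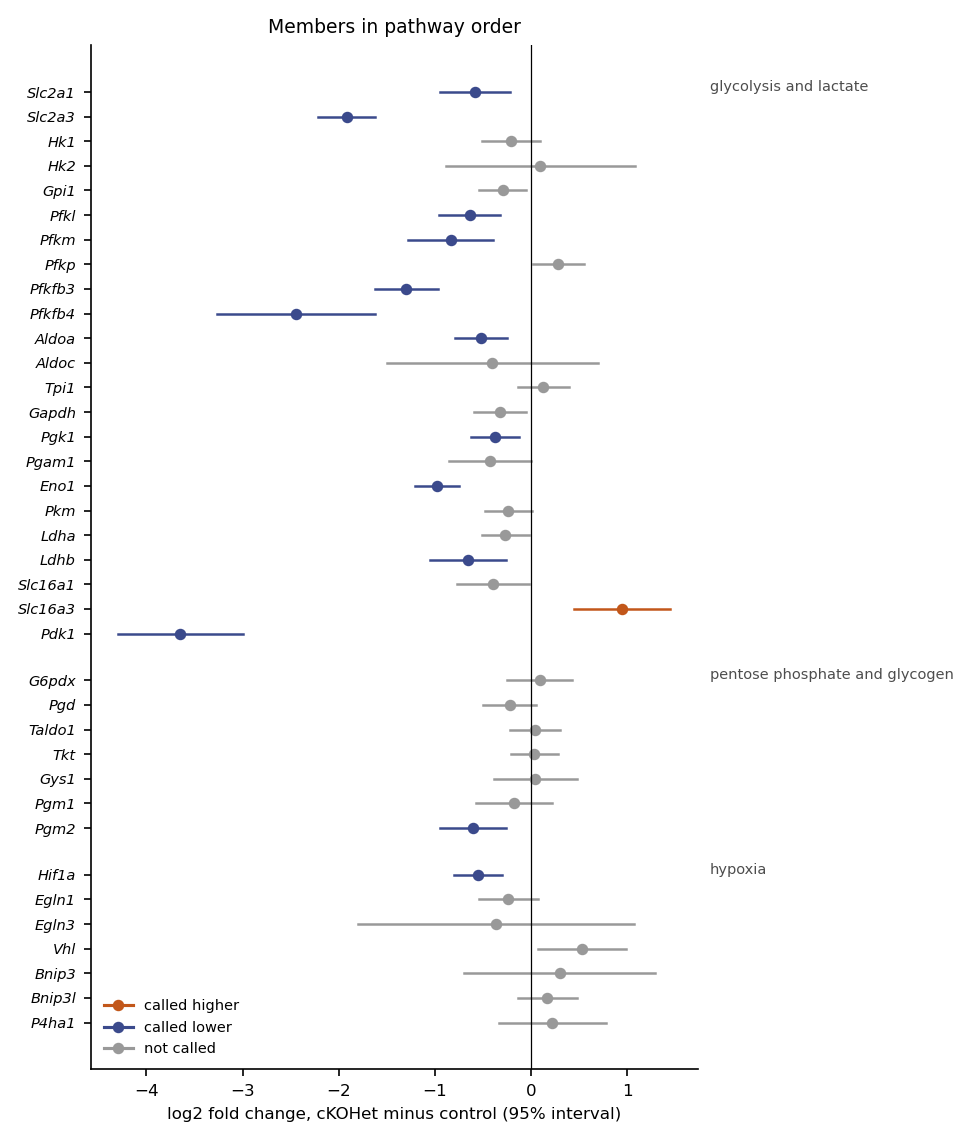
Log2 fold change of each of the 37 genes in pathway order (cKOHet minus control, on the log2(value + 1) scale), with its 95% interval from limma. Orange points were called higher, blue points lower and grey points were not called. The blue points lie in the upper block, from Slc2a1 to Pdk1, apart from Pgm2 and Hif1a, and Pdk1 at -3.65 lies farthest from 0.

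The promoters of genes that moved or did not move are shown first, because the hypoxia response element is a sequence shared by many glycolytic genes. RefSeq windows of 300 bases (250 before and 50 after each start, build GRCm38.p6) were at hand for 35 of the 37 genes, all but Slc2a3 and Bnip3l. The core of the element was searched as ACGTG or GCGTG on both strands, where a CACGTG holds it once on each strand. It stood in 12 of 12 windows of genes called lower, in the window of the 1 gene called higher, and in 16 of 22 windows of genes not called (72.7%). The same search matched 63.2% of the 10535 windows of genes tested and 43.8% of all 32851 windows. Each of the 35 genes is counted with 1 window, that with most annotated transcript starts close to its start. The background shares hold every window of a gene, so the windows compared were not chosen alike. With ACGTG alone the counts were 7 of 12 for genes called lower and 10 of 22 for genes not called, against 26.1% of windows of genes tested. CCGGAA, 1 form of the Ets motif, was also searched on both strands, and other forms were not. It stood in 2 of the 12 windows of genes called lower (Pfkl and Aldoa). Of the 22 windows of genes not called it stood in 1 (G6pdx), against 30.2% of windows of genes tested. A window without CCGGAA can still hold another form. These are matches of letters, not measured binding.

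The bases before the start that lie outside annotated exons are printed for 4 genes called lower, the 1 called higher (Slc16a3) and Bnip3, a known hypoxia target that was not called. Capitals mark each match of ACGTG or GCGTG on either strand, so CACGT and CACGC are matches on the opposite strand. All are written 5′ to 3′ on the gene's own strand.
Pdk1 (chr2:71872974-71873223, plus strand): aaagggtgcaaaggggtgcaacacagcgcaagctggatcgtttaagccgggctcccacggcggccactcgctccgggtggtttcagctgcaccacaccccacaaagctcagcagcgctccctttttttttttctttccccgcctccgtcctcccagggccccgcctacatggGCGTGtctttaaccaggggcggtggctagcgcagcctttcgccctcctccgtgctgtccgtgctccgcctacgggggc
Pfkfb3 (chr2:11502102-11502340, minus strand): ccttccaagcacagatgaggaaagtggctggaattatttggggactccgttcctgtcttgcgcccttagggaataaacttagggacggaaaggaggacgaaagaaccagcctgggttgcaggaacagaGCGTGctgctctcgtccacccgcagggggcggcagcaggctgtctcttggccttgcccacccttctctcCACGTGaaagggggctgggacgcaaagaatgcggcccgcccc
Pgk1 (chrX:106186850-106187099, plus strand): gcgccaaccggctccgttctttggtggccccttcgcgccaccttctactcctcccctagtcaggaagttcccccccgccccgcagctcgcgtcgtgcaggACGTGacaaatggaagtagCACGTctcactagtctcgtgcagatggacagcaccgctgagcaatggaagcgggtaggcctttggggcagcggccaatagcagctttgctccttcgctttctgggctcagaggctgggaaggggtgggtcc
Hif1a (chr12:73907617-73907866, plus strand): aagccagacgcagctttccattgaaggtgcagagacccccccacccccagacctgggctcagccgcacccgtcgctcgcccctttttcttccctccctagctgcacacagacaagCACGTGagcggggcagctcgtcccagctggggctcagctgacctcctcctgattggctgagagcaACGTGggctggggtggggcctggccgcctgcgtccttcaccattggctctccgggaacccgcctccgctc
Slc16a3 (chr11:120948817-120949052, plus strand): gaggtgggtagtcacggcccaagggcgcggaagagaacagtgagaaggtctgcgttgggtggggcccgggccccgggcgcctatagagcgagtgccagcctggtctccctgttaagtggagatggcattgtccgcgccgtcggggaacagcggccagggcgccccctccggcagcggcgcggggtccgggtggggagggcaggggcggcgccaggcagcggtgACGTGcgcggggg
Bnip3 (chr7:138909520-138909756, minus strand): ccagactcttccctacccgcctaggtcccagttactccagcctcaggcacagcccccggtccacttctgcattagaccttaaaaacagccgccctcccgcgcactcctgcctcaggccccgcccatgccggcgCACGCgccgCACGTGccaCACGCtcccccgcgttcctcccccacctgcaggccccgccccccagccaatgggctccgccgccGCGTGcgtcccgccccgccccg
The printed stretches end at or before the start, so matches that reach past their ends are counted above but not shown. Bnip3 held 5 matches in its 300-base window and its level did not pass the test, while the window of Pdk1, the gene with the largest fall of the 37, held 2, of which 1 is printed.

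Glucose enters through the transporters Slc2a1 (GLUT1) and Slc2a3 (GLUT3, the high-affinity form of neurons and leukocytes), and both fell. Slc2a3 (ENSMUSG00000003153, mm10 chromosome 6, 122727809 to 122801640, minus strand) was at 297, 374 and 284 in cKOHet libraries and at 1192, 1089.5 and 1318 in control libraries. Its groups were far apart, and its level was 3.77-fold lower in cKOHet cells (log2 fold change -1.92, SE 0.14, limma adjusted p = 1.27e-07). Slc2a1 was at 179, 197 and 163 in cKOHet libraries and at 258, 239 and 315 in control libraries, a log2 fold change of -0.58 (SE 0.17, adjusted p = 0.0234). Its groups did not overlap either, but the call was lost without cKOHet replicate 1 (adjusted p = 0.0518) or 4 (0.0681) and without control replicate 1 (0.0531) or 4 (0.117). The Slc2a1 call was also lost without the mean-variance trend (adjusted p = 0.0605) and with the libraries of high Xist alone (-0.40, adjusted p = 0.193). Per kb of exon, Slc2a3 made up 46.0% ± 1.70 of the summed level of both transporters in cKOHet libraries and 68.3% ± 1.17 in control libraries (SD, n = 3 each).

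The trapping of glucose as glucose 6-phosphate showed no called change. Hk1, the hexokinase that made up 98.2% of the per-kb level of the pair in cKOHet libraries and 98.6% in control libraries, was at 1037, 1389 and 1499.7 in cKOHet libraries and at 1365, 1513 and 1609.9 in control libraries, with overlapping groups (adjusted p = 0.345). Hk2, the inducible hexokinase, lay between 11.1 and 18.7 in cKOHet libraries and between 11.6 and 17.6 in control libraries (adjusted p = 0.916). Gpi1, which converts glucose 6-phosphate to fructose 6-phosphate, was at 2261, 2351 and 2047 in cKOHet libraries and at 2817, 2515 and 2821 in control libraries. Every cKOHet value of Gpi1 was below every control value, yet the gene missed the threshold (log2 fold change -0.29, adjusted p = 0.0858).

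At phosphofructokinase, the committed step, 2 of the 3 genes fell and Pfkp was not called. Pfkl, the liver-type subunit, was at 228, 269 and 253 in cKOHet libraries and at 367, 361 and 442 in control libraries (log2 fold change -0.64, SE 0.15, limma adjusted p = 0.00599). Pfkm, the muscle-type subunit, was at 79.6, 101 and 109 in cKOHet libraries and at 172, 188 and 157 in control libraries (-0.84, SE 0.21, adjusted p = 0.00864). Both fell with no overlap between groups. Pfkp, the platelet-type subunit, was at 1116, 1366 and 1128 in cKOHet libraries and at 1063, 898 and 999 in control libraries. All cKOHet values of Pfkp were above all control values, but the difference was not called (0.28, adjusted p = 0.126). Per kb of exon, Pfkp made up 57.5% ± 2.70 of the 3 subunits in cKOHet libraries and 40.1% ± 2.46 in control libraries (SD, n = 3 each).

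Of the 4 genes tested for the bifunctional enzymes that make and break fructose 2,6-bisphosphate, the strongest activator of phosphofructokinase, Pfkfb3 and Pfkfb4 fell. Pfkfb1 and Pfkfb2, which are not among the 37, had positive log2 fold changes with overlapping groups and were not called (1.08 for Pfkfb1 and 0.88 for Pfkfb2, limma adjusted p = 0.327 and 0.0983). Pfkfb1 was named after its values were seen. Pfkfb3, the form with the highest kinase activity (chromosome 2, 11471433 to 11554077, minus strand), was at 181, 199 and 152 in cKOHet libraries and at 449, 443 and 412 in control libraries. The groups were widely separated, and the level was 2.45-fold lower in cKOHet cells (log2 fold change -1.295, SE 0.15, limma adjusted p = 1.93e-05). Pfkfb4 (chromosome 9, 108991778 to 109032228, plus strand), a hypoxia-inducible form, was at 11.1, 12.8 and 8.41 in cKOHet libraries and at 78.8, 48.5 and 63.3 in control libraries, and fell by 2.44 on the log2 scale (SE 0.38, adjusted p = 0.000249). Its cKOHet values were close to the filter of 10.

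In the later steps of the pathway, which split the hexose and recover ATP, Eno1 fell most. Eno1, or enolase 1 (chromosome 4, 150236721 to 150248879, plus strand), was at 2003, 1849 and 1818 in cKOHet libraries and at 3682, 3642 and 3832 in control libraries. The 2 groups were far apart compared with their spread (log2 fold change -0.98, SE 0.11, limma adjusted p = 9.91e-06), a 1.97-fold lower level in cKOHet cells. A gene named as its copy, Eno1b, had means of 13.5 in cKOHet libraries and 27.3 in control libraries. Their sequences were not compared, and reads could be shared between these copies.

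Aldoa, the main aldolase, was at 2414, 2507 and 2208 in cKOHet libraries and at 3350.1, 2955 and 3993 in control libraries, with no overlap (log2 fold change -0.52, SE 0.13, limma adjusted p = 0.00847). The Aldoa call was lost without the mean-variance trend (adjusted p = 0.0806) and with the libraries of high Xist alone (0.0838). Pgk1, phosphoglycerate kinase, was at 862, 774 and 729.6 in cKOHet libraries and at 1012, 1036 and 1015 in control libraries (-0.38, SE 0.12, adjusted p = 0.0302). The Pgk1 groups did not overlap. Its call was lost without any 1 of cKOHet replicates 2 and 4 and control replicates 1, 2 and 4 (adjusted p 0.0705 to 0.0894). Pgk1 was also not called without the mean-variance trend (adjusted p = 0.113) or with the libraries of high Xist alone (0.117). Its processed copy Pgk1-rs7 had means of 9.14 in cKOHet libraries and 18.6 in control libraries.

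The other genes of these steps were not called. Gapdh, the glyceraldehyde 3-phosphate dehydrogenase often used as a reference transcript, was at 4602, 5213 and 4152 in cKOHet libraries and at 5818, 5506 and 6063 in control libraries (log2 fold change -0.32, limma adjusted p = 0.0848). Its groups did not overlap. Pgam1, phosphoglycerate mutase, lay at 125, 132 and 190.4 in cKOHet libraries and at 215, 179 and 197 in control libraries, where cKOHet replicate 4 was inside the control range. Pgam1 was not called (-0.42, adjusted p = 0.16) but passed without cKOHet replicate 4 (-0.61, adjusted p = 0.0429). Pkm, pyruvate kinase, was at 3643, 4009.6 and 3932 in cKOHet libraries and at 4440.3, 4502 and 4690.1 in control libraries, without overlap and without a call (-0.24, adjusted p = 0.165). Tpi1, triosephosphate isomerase, had a small positive difference (0.13, adjusted p = 0.527), and Aldoc, the minor aldolase, lay between 6.05 and 21.8 in all 6 libraries (-0.40, adjusted p = 0.652).

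At the fate of pyruvate, the largest change of all 37 genes was that of Pdk1. Pdk1, a kinase that shuts pyruvate dehydrogenase and so limits entry into the mitochondria (ENSMUSG00000006494, chromosome 2, 71873224 to 71903858, plus strand), was at 56.4, 34.1 and 18.8 in cKOHet libraries and at 441, 414 and 428 in control libraries. The control libraries were nearly level and every cKOHet library was far below them. The level was 12.5-fold lower in cKOHet cells (log2 fold change -3.65, SE 0.30, limma adjusted p = 5.12e-07).

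Ldha, the main lactate dehydrogenase, was at 2848, 2587 and 2382 in cKOHet libraries and at 3118, 3136 and 3117 in control libraries, all lower but not called (log2 fold change -0.27, adjusted p = 0.118). Ldhb, the form of oxidative tissues, was at 123, 163 and 129 in cKOHet libraries and at 239, 209 and 203 in control libraries and fell (-0.65, SE 0.18, limma adjusted p = 0.0192). The Ldhb groups did not overlap, and the call was lost without cKOHet replicate 1 (adjusted p = 0.0646) or 4 (0.0517) or control replicate 1 (0.091). With the libraries of high Xist alone Ldhb was not called either (adjusted p = 0.0763).

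Of the lactate transporters Slc16a3 was called and Slc16a1 was not. Slc16a3, or MCT4, a hypoxia-inducible exporter of lactate (chromosome 11, 120948480 to 120960868, plus strand), was the 1 gene that rose. It was at 145, 204 and 130.1 in cKOHet libraries and at 69.1, 93.9 and 81.5 in control libraries, with no overlap (log2 fold change 0.95, SE 0.23, limma adjusted p = 0.00886). Its highest value was cKOHet replicate 2, without which the call was lost (0.76, adjusted p = 0.0621). Slc16a1, or MCT1, was at 150.1, 129.7 and 149 in cKOHet libraries and at 186, 187 and 190.2 in control libraries, all lower and not called (-0.39, adjusted p = 0.137). Per kb of exon, Slc16a3 made up 47.8% ± 7.81 of the pair in cKOHet libraries and 26.5% ± 2.93 in control libraries (SD, n = 3 each).

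**Figure D2:**
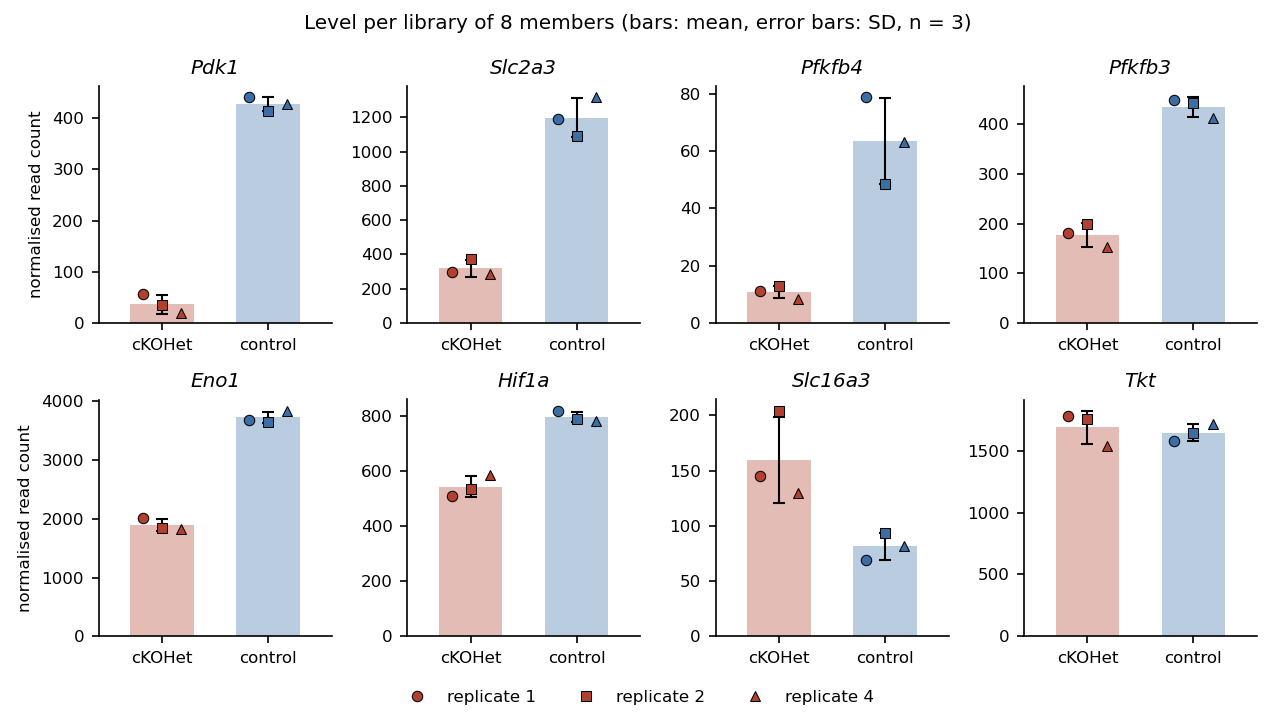
Normalised read counts of 8 genes, with 1 point per library (circle, square and triangle for replicates 1, 2 and 4), bars for the mean and error bars for the SD of 3 libraries, cKOHet on the left and control on the right of each panel. In the panels of Pdk1, Slc2a3, Pfkfb4, Pfkfb3, Eno1 and Hif1a all red points are below all blue points, in Slc16a3 all are above, and in Tkt they overlap.

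Because several steps have more than 1 gene, the ratio of the genes within a step was compared in each library, for 8 pairs. The log2 ratio of Slc2a3 to Slc2a1 differed by -1.34 (cKOHet minus control). The difference was 0.92 for Pfkp over Pfkl, -1.15 for Pfkfb4 over Pfkfb3, -0.39 for Ldhb over Ldha and 1.34 for Slc16a3 over Slc16a1. In these 5 pairs the groups did not overlap, and a two-sided exact permutation test gave p = 0.1, the smallest that 3 libraries against 3 allow (adjusted p = 0.16 over the 8 pairs). The remaining ratios overlapped between groups, with differences of 0.31 for Hk2 over Hk1, -0.20 for Pfkm over Pfkl and 0.12 for Aldoc over Aldoa (exact permutation p 0.3 to 0.9).

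**Figure D3:**
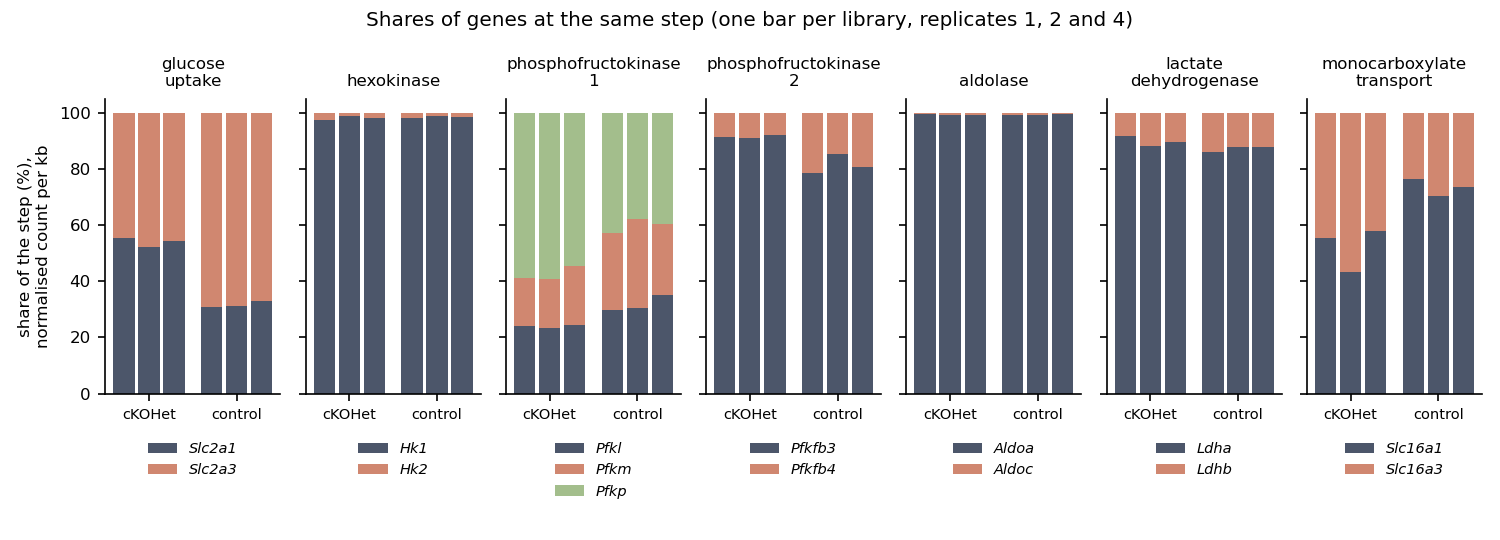
Share (%) of each gene in the summed level of the genes at the same step, in normalised read counts per kb of exon, with 1 stacked bar per library (replicates 1, 2 and 4 from left to right, cKOHet before control in each panel). The Slc2a3 share averaged 46.0% in cKOHet libraries and 68.3% in control libraries, the Pfkp share averaged 57.5% in cKOHet libraries and 40.1% in control libraries, and the hexokinase and aldolase panels are nearly alike in all libraries.

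Among the 37, the pentose phosphate genes, which make NADPH and ribose, were not called, and of the glycogen genes Pgm2 alone was called. G6pdx, the dehydrogenase that opens the oxidative branch, lay at 315 to 389 in cKOHet libraries and at 269 to 361 in control libraries (log2 fold change 0.09, limma adjusted p = 0.755). Pgd, the next dehydrogenase, lay at 485 to 575 in cKOHet libraries and at 564 to 662 in control libraries (-0.22, adjusted p = 0.263). The non-oxidative enzymes Taldo1, transaldolase, and Tkt, transketolase, had log2 fold changes of 0.04 each, with 95% intervals of -0.22 to 0.30 and -0.20 to 0.28. Those intervals leave out a 1.5-fold change in either direction. Gys1, glycogen synthase, was at 119 to 182 in cKOHet libraries and at 146 to 149 in control libraries (0.04, adjusted p = 0.917), and Pgm1, the main phosphoglucomutase, at 168 to 246 in cKOHet libraries and at 194 to 254 in control libraries (-0.18, adjusted p = 0.567). Pgm2, which in humans acts mainly on pentose phosphates, fell, at 161, 190.0 and 172 in cKOHet libraries and 279, 249 and 265 in control libraries (-0.60, SE 0.16, adjusted p = 0.0143). Its groups did not overlap, and it was not called without control replicate 1 (adjusted p = 0.065) or with the libraries of high Xist alone (0.067).

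Among the hypoxia genes of the 37, Hif1a fell, and the oxygen-sensing genes Egln1, Egln3 and Vhl were not called. Hif1a (chromosome 12, 73901375 to 73947530, plus strand) was at 509.6, 536 and 585 in cKOHet libraries and at 818, 787 and 781 in control libraries. The groups did not overlap and both were tight (log2 fold change -0.55, SE 0.12, limma adjusted p = 0.00341), a 1.46-fold lower level in cKOHet cells. Transcript levels say nothing of the protein, which is controlled by its breakdown.

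Vhl, the recognition subunit of the ligase that destroys hydroxylated HIF, was at 133, 164 and 142 in cKOHet libraries and at 108, 115 and 81.5 in control libraries. All cKOHet values of Vhl were above all control values, but it was not called (log2 fold change 0.53, adjusted p = 0.0988). The prolyl hydroxylase Egln1 lay at 438, 499 and 618 in cKOHet libraries and at 561, 634 and 618 in control libraries (-0.23, adjusted p = 0.287). Egln3, a hydroxylase that HIF itself induces, was low and scattered, at 10.1, 21.5 and 2.14 in cKOHet libraries and at 12.9, 11.6 and 8.49 in control libraries (-0.36, adjusted p = 0.767). Its sign rests on single libraries, with -1.01 without cKOHet replicate 2 and 0.41 without cKOHet replicate 4. The mitophagy receptors Bnip3 and Bnip3l, which HIF induces, were not called. Bnip3 was at 35.2, 17.5 and 32.2 in cKOHet libraries and at 23.97, 11.7 and 36.9 in control libraries (0.30, adjusted p = 0.722), and Bnip3l lay at 598 to 735 in cKOHet libraries and 482 to 651 in control libraries (0.17, adjusted p = 0.462). P4ha1, a collagen prolyl hydroxylase induced by HIF, was at 111, 109 and 206 in cKOHet libraries and at 132, 124 and 95.2 in control libraries (0.22, adjusted p = 0.609), where a single cKOHet library was above the rest.

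Other genes of these pathways came from 7 lists of textbook members, also chosen with earlier results of these data known. They gave a more even picture. Of 99 tested, 13 were called higher and 13 lower (median log2 fold change 0.09), against the 11.5% higher and 9.97% lower of all genes tested. The count of 13 lower became 8 without control replicate 4, where 829 of all genes tested were lower, against 1119 with all libraries.

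Of 13 further genes of glycolysis, 1 was called, with a median of -0.28. Slc2a8, an intracellular glucose transporter, fell, at 94.7, 118 and 70.8 in cKOHet libraries and 178, 203 and 206 in control libraries (log2 fold change -1.07, limma adjusted p = 0.00228). Pfkfb2, Adpgk and Minpp1 were not called (adjusted p 0.0983 to 0.243). Of 14 genes of pyruvate oxidation 2 fell (median 0.08), namely Pdha1, a catalytic subunit of pyruvate dehydrogenase, at 643, 636 and 692 in cKOHet libraries and 1039.5, 851 and 1087 in control libraries (-0.59, adjusted p = 0.00327), and Me2, mitochondrial malic enzyme (-0.49, adjusted p = 0.0184). Me2 was not called without cKOHet replicate 1 or 2 or control replicate 4 (adjusted p 0.0504 to 0.1). Pdp1, the phosphatase that opposes the kinase encoded by Pdk1, was at 141, 126 and 127 in cKOHet libraries and at 82.1, 102 and 77.2 in control libraries, without overlap and without a call (0.59, adjusted p = 0.0665). Mpc2, a subunit of the mitochondrial pyruvate carrier, was not called (-0.70, adjusted p = 0.102) and passed without control replicate 1 (-0.93, adjusted p = 0.048).

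Of 10 further pentose phosphate genes 1 rose and 2 fell (median -0.03). Tktl1, a transketolase-like gene (chromosome X, 74177259 to 74208500), was at 119.8, 129 and 158 in cKOHet libraries and at 10.9, 8.56 and 12.8 in control libraries. The groups were far apart (log2 fold change 3.545, SE 0.33, limma adjusted p = 1.39e-06), while Tkt itself did not pass the test. H6pd, the hexose 6-phosphate dehydrogenase of the endoplasmic reticulum, fell (-0.70, adjusted p = 0.00183), as did Prps2, which makes phosphoribosyl pyrophosphate (-0.40, adjusted p = 0.0354). The Prps2 call was lost without any 1 library other than cKOHet replicate 4 (adjusted p 0.0529 to 0.138). Rpia, ribose 5-phosphate isomerase, was not called (0.25, adjusted p = 0.205). Of 13 further glycogen genes 1 rose (median 0.22), Ppp1r3b, which brings a phosphatase to glycogen, at 236, 245 and 302 in cKOHet libraries and 167, 165 and 154 in control libraries (0.68, adjusted p = 0.00933), a call lost with the libraries of high Xist alone (adjusted p = 0.0863). Phkb, Pygb and Gbe1 were not called (0.56, 0.34 and -0.51, adjusted p = 0.0512, 0.0706 and 0.0954). Each passed without 1 library, Phkb without control replicate 4 (adjusted p = 0.0482), Pygb without cKOHet replicate 1 (0.0283) and Gbe1 without cKOHet replicate 2 (0.0404).

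Of 14 further regulators around Hif1a, 3 rose and 2 fell (median 0.25). Among the 4 other HIF subunits in that list, Arnt2 rose, Hif3a fell, and Arnt and Epas1 were not called. Arnt2, a partner subunit of HIF known mainly from neurons (chromosome 7, 84246278 to 84410176), was at 254, 629.8 and 591 in cKOHet libraries and at 31.2, 4.34 and 6.47 in control libraries, and rose by 5.39 on the log2 scale (SE 0.53, limma adjusted p = 2.73e-06). The groups did not overlap, and without control replicate 1 the value was 6.18. Arnt, the widely expressed partner, lay at 471 to 536 in cKOHet libraries and at 441 to 497 in control libraries (0.13, adjusted p = 0.541), and was named after its values were seen, as was Epas1, the gene of HIF-2α, at 21.2, 123 and 35.5 in cKOHet libraries and at 112, 74.9 and 61.3 in control libraries (-0.80, adjusted p = 0.281). Hif3a, whose products include inhibitors of HIF (chromosome 7, 17031507 to 17062427), was at 8.07, 1.72 and 0.0628 in cKOHet libraries and at 58.5, 57.8 and 37.99 in control libraries. It fell with no overlap (-4.12, adjusted p = 0.000375), with -4.92 without cKOHet replicate 1 and -3.37 without cKOHet replicate 4, and -2.86 with a pseudocount of 5 in place of 1. No cKOHet value of Hif3a reached the filter of 10, which it passed through the control libraries alone. Siah2, a ligase that degrades Egln proteins, rose, at 138, 88.1 and 109 in cKOHet libraries and 34.9, 45.4 and 46.6 in control libraries (1.37, adjusted p = 0.00201). Egln2, the third prolyl hydroxylase, fell (-0.52, adjusted p = 0.0231) but was not called without cKOHet replicate 1 or any 1 control replicate (adjusted p 0.0542 to 0.0859). The coactivator Ep300, named after its values were seen, was just past the threshold (0.49, adjusted p = 0.0486) and lost its call without any 1 library other than cKOHet replicate 1 (adjusted p 0.0586 to 0.188).

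Of 22 further genes that HIF is known to induce, 6 rose and 4 fell (median 0.19). In Stc2, P4ha2, Ndrg1 and Car12 no value of the lower group reached the filter of 10. These genes passed it through the other group alone. Ero1l, an oxidase of the endoplasmic reticulum that forms disulfide bonds (chromosome 14, 45283087 to 45318771), was at 2122, 2199 and 2349.9 in cKOHet libraries and at 754, 826 and 769 in control libraries. The groups were far apart (log2 fold change 1.505, SE 0.11, limma adjusted p = 1.47e-07). Stc2, a secreted glycoprotein, was listed at 0.012, 0 and 0.068 in cKOHet libraries and at 103, 76.8 and 65.4 in control libraries (adjusted p = 6.71e-07), and no fold is given. P4ha2, a second collagen prolyl hydroxylase, rose, at 60.4, 70.7 and 60.3 in cKOHet libraries and 0.781, 8.54 and 4.34 in control libraries (3.85, adjusted p = 0.000138, 3.18 without control replicate 1, and 2.93 with a pseudocount of 5), beside P4ha1, which did not pass. Plin2, a lipid droplet coat protein, rose, at 409, 352 and 542 in cKOHet libraries and 219, 193 and 154 in control libraries (1.19, adjusted p = 0.000243).

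The remaining HIF targets called were named after their values were seen. Ddit4, an inhibitor of mTORC1 signalling, was at 524, 507 and 363 in cKOHet libraries and at 211, 222 and 282 in control libraries (log2 fold change 0.95, limma adjusted p = 0.0009), and Ndrg1 (2.93) and Car9, a carbonic anhydrase (2.65), also rose, at low levels. Car9 was not called without cKOHet replicate 1 (adjusted p = 0.0659) or 2 (0.0721), and its value was 1.53 without control replicate 4 and 3.32 without control replicate 1. Angptl4 (-1.31), Car12 (-2.64) and Bhlhe40 (-0.42) fell. The sizes given for Ndrg1, Car9 and Car12 depend on the pseudocount, and with 5 in place of 1 they were 1.69, 1.78 and -1.48. Angptl4 and Car12 were not called with the libraries of high Xist alone (adjusted p = 0.0549 and 0.0541). Car12 was not called without control replicate 4 (adjusted p = 0.0806), and Bhlhe40 not without cKOHet replicate 1 or control replicate 1 or 2 (adjusted p 0.0519 to 0.0814).

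**Figure D4:**
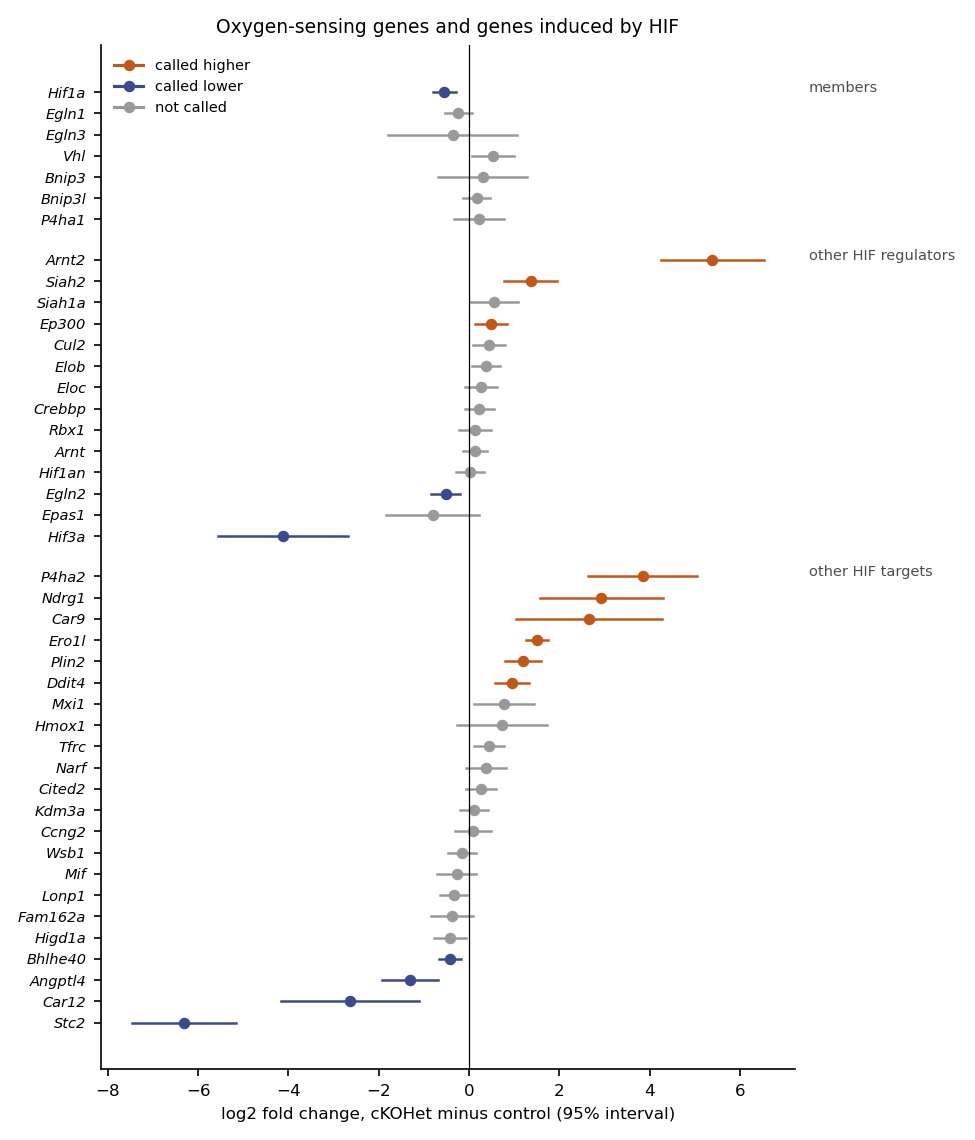
Log2 fold change (cKOHet minus control) with its 95% interval for the hypoxia genes among the 37, for other HIF regulators and for other genes induced by HIF. Arnt2 at 5.39 and P4ha2 at 3.85 lie to the far right and Hif3a at -4.12 to the far left. Stc2 was listed at or near 0 in all cKOHet libraries, so its plotted value depends on the pseudocount.

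Of 13 regulators of glucose use 2 rose and 2 fell (median -0.10). Txnip, an inhibitor of glucose uptake, was at 5043, 3789 and 5681 in cKOHet libraries and at 3399.8, 2722 and 3241 in control libraries and rose (log2 fold change 0.62, limma adjusted p = 0.00777). The Txnip call was lost without the mean-variance trend (adjusted p = 0.0869) and with the libraries of high Xist alone (0.0637). Its relative Arrdc4 rose too, at 104, 76.0 and 108 in cKOHet libraries and 34.02, 39.1 and 63.4 in control libraries (1.09, adjusted p = 0.0165), but was not called without cKOHet replicate 1 or 4 or control replicate 1 (adjusted p 0.0585 to 0.0698). Irf4, a transcription factor that promotes glycolysis in activated T cells, fell, at 81.6, 120.4 and 116 in cKOHet libraries and 218, 199 and 194 in control libraries (-0.96, adjusted p = 0.00316). Trp53, the gene of p53, fell (-0.54, adjusted p = 0.0124) and was not called without cKOHet replicate 4 or control replicate 1 or 4 (adjusted p 0.052 to 0.0654). Nor was Trp53 called with the libraries of high Xist alone (adjusted p = 0.148). Myc, an inducer of glycolytic genes chosen here after its values were seen, overlapped between groups (-0.11, adjusted p = 0.661).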

How the data were processed

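RNA sequencing values were deposited as 1 signal for each Ensembl gene and library, in a file the authors named for normalised counts from HTSeq. Trimmomatic 0.33, STAR, HTSeq 0.6.1, DESeq2 and mm10 were used, per the submitters' processing notes. Settings, strand, annotation release and scaling: not given in the sources used here. Whole reads were not recovered from the low values, so the depth is unknown. Per the labels' protocols, RNA came from RNeasy mini kits and libraries from the Ovation Ultralow system.

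The 38 genes and all lists were chosen with earlier results of these data known. GENCODE M21 named 12864 of 12942 identifiers, and gave exon lengths. The 11226 genes with a value of 10 or more in 3 or more of the 6 libraries were tested as log2(value + 1) with limma 3.58.1 in R 4.3.3 (mean-variance trend), with Benjamini-Hochberg adjusted p-values over the whole set. Calls were made below 0.05. Fold changes on this scale understate low genes. Ratios of genes at a step used two-sided exact permutation tests (scipy 1.17.1, Python 3.11.15). Besides the 38 genes, Ets1, Tbx21 and Xist, the rule named the 4 genes with the smallest adjusted p per list, or 2 where none was called. It also named markers reaching 100, but iNKT1 identity and dividing-cell markers are named here only where called. On simulated data with 200 changed genes, the procedure called 30.3% of 1.5-fold, 63.9% of 2-fold and 90.5% of 4-fold changes. Of its calls there, 6.6% were false. In the data 2407 genes were called, so the adjustment for many tests was stricter in the simulation, and these shares need not hold for the data. Changes of 1.5-fold or less can still go uncalled. Alternatives covered the pseudocount, filter, scaling, variance model, library weights, a replicate block, Xist and each replicate left out. Where a replicate was left out, its group kept 2 libraries and the genes tested stayed the same.

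Exons of other annotated genes cover 10.7% to 22.3% of the exonic bases of Gpi1, Pfkm, Pkm, G6pdx, Pgm1 and Bnip3, and reads there cannot be assigned with certainty. Gapdh, Pgk1, Pgam1, Eno1 and Bnip3l have genes named as their copies in the table. Copies were sought by name alone and sequences were not compared, so copies under other names could be missed.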

Additional observations from a re-analysis of the deposited data

How the results depend on the processing

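Of the 14 genes called among the 37, 8 kept their call in every alternative in which they were tested (Slc2a3, Pfkl, Pfkm, Pfkfb3, Pfkfb4, Eno1, Pdk1 and Hif1a), and 6 lost it in some (Slc2a1, Aldoa, Pgk1, Ldhb, Slc16a3 and Pgm2). Leaving out 1 library at a time gave 9 to 12 lower and 0 to 1 higher among the 37, and 8 to 13 lower and 11 to 14 higher among the other pathway genes. Over all genes tested it gave 829 to 1033 lower and 1002 to 1174 higher, against 1119 and 1288 in the main fit. Without the mean-variance trend 10 of the 37 and 8 other pathway genes were lower, and 773 of all genes tested. With the 4 libraries of high Xist alone 8 of the 37 and 8 other pathway genes were lower, and 775 of all genes tested. Aldoa missed the threshold in these last 2 settings (adjusted p = 0.0806 and 0.0838). At an adjusted p under 0.01, 1476 genes of the whole table were called, 806 higher and 670 lower. The cause of these shifts was not tested.

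Whether the same replicate numbers pair the libraries of the 2 groups could not be settled. Deviations from the group means correlated at 0.0917, 0.0878 and 0.0549 between libraries of the same number. Each cKOHet library correlated best with its own number, and the other correlations ran from -0.12 to 0.029. The correlations are small and rest on 3 libraries per group. A fit with the replicate block called 2412 genes, 13 of the 37 lower and 1 higher, and it brought Phkb past the threshold (adjusted p = 0.0452).

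Signs turned in genes that were not called. With the high Xist libraries alone the log2 fold change was -0.012 for Hk2, 0.25 for Egln3, -0.22 for P4ha1 and 0.00075 for Myc, and with library weights it was -0.018 for Hk2. With 1 library left out it ranged from -0.048 to 0.33 for Hk2, -0.69 to 0.16 for Aldoc, -0.044 to 0.17 for G6pdx, -0.018 to 0.11 for Taldo1, -0.0026 to 0.10 for Tkt, -0.088 to 0.22 for Gys1, -1.01 to 0.41 for Egln3, -0.13 to 0.66 for Bnip3 and -0.076 to 0.38 for P4ha1, and the ratio of Aldoc to Aldoa from -0.22 to 0.69. Of the values of single genes and ratios under alternatives, 1377 kept direction and side of the threshold, 71 lost the threshold, 10 passed it and 21 turned sign. With 3 libraries a group and the depth unknown, genes near the filter of 10 (Hk2, Aldoc, Egln3, Pfkfb4 in cKOHet cells) are the least certain.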
